A study of Homo sapiens with 4 samples.

Results

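Open chromatin at promoters of long noncoding RNA (lncRNA) genes was compared between BJ fibroblasts that expressed KLF4 alone (CTR) and BJ fibroblasts that expressed ΔNp63α together with KLF4 (p63). BJ is an established line of human skin fibroblasts. In both groups the expression constructs were retroviral and under a doxycycline-inducible promoter. KLF4 was thus present in the controls too, and ΔNp63α was what the constructs differed in. The level of KLF4 in the 2 groups was not compared here. Per the study's methods the lines were polyclonal, and the 2 replicates of a group were separate inductions of the same lines. Each construct was in a line of its own, so ΔNp63α and the line cannot be told apart. Accessibility was measured by ATAC-seq, which uses a transposase to tag DNA that nucleosomes leave free. The authors deposited 1 peak list per group, made from both replicates, so no value per replicate exists for any region, no test across replicates was possible, and every interval given here covers counting error alone.

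A peak of a list was counted as an open region when its −log10 q, the significance given by the peak caller, was 10 or more and it lay on chromosomes 1 to 22 or X. An open region was counted as a lncRNA promoter when its summit, the position of highest signal, was at most 1 kb from the transcription start (TSS) of an annotated lncRNA gene and more than 3 kb from every TSS of a protein-coding gene. By this rule 2049 of 56580 open regions of the CTR list and 2211 of 62233 of the p63 list were lncRNA promoters, at 1862 and 2001 genes. Of the 13919 lncRNA genes with a start more than 3 kb from protein-coding starts, 2224 (16%) had such a region in either list. As a check of the cell type, open regions were looked for within 1 kb of the starts of 6 fibroblast genes (COL1A1, COL1A2, COL3A1, PDGFRB, THY1 and VIM) and 6 keratinocyte genes (KRT5, KRT14, CDH1, PKP1, SFN and DSP). In both lists 5 of the 6 fibroblast genes and 2 of the 6 keratinocyte genes had one, with COL3A1, KRT5, KRT14, PKP1 and SFN lacking one.

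LncRNAs are long transcripts without a long reading frame, and most are transcribed by RNA polymerase II, spliced and restricted to few cell types. Their promoters resemble those of protein-coding genes in having a nucleosome-free start, but fewer of them lie in CpG islands, stretches rich in C followed by G that are accessible in most cells. Many lncRNA genes begin within enhancers, where transcription factors open the chromatin and short or long transcripts are made. ΔNp63α is the main p63 isoform of the basal epidermis and binds a site built of a pair of decamers, each with a C and a G in its core, also where chromatin is closed. KLF4 is a zinc-finger factor of the upper epidermis that binds GC-rich sequence.

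Sequences of some of the regions follow, as examples of the motifs and base composition that were counted. All coordinates are hg38, and the genomic plus strand is printed from 5′ to 3′ unless stated. Of the p63 sites in p63-only lncRNA promoters, the single one with 1 mismatch outside the fixed bases, at ENSG00000229976, and 7 of the 18 with 2 mismatches are given, the latter in order of −log10 q, with 20 bases to either side and the site in capitals. ENSG00000226965, ENSG00000286770 and LINC02367 had a CTR peak below the threshold and the others had none.
ENSG00000229976, chr20:39812352-39812411: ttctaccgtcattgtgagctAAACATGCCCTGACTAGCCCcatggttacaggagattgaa
ENSG00000226965, chr7:110534694-110534753: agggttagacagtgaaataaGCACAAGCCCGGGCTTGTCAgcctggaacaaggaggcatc
ENSG00000286770, chr15:68487605-68487664: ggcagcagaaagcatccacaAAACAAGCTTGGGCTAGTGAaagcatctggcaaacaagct
ENSG00000255426, chr11:45736570-45736629: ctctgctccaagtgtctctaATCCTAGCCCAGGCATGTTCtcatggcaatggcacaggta
LINC02367, chr12:9347485-9347544: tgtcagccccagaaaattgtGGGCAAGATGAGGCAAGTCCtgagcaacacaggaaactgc
ENSG00000274765, chr15:55344323-55344382: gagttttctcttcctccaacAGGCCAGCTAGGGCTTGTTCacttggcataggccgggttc
ENSG00000258168, chr12:70520973-70521032: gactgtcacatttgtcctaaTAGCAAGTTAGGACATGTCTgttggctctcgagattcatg
ENSG00000213963, chr2:177322902-177322961: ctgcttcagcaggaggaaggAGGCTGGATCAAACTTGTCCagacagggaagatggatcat

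A region at PURPL, a lncRNA known as a p53 target, was open in the CTR list and had a p63 peak below the threshold. A site without any mismatch lay near its summit and is shown in capitals.
PURPL, chr5:27472145-27472204: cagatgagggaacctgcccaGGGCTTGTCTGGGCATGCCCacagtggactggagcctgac
This site lay just upstream of the called peak, whose first base was 27472192, and within 100 bp of the summit. Sites were counted by distance to the summit, so this one was counted. By that count p63 sites were not confined to regions of the p63 list alone.

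As examples of a CpG-rich and a CpG-poor promoter, chosen after their values were seen, the bases up to 100 bp to either side of the summit are printed for SNHG29, a small nucleolar RNA host gene open in both lists, and for LINC01937, open in the p63 list alone, with each CG in capitals. The window at SNHG29 held 16 CG and the window at LINC01937 held 4.
SNHG29, chr17:16438753-16438953: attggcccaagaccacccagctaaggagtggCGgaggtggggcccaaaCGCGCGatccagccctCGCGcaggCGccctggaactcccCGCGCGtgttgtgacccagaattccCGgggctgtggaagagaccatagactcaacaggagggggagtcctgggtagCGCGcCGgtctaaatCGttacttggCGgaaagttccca
LINC01937, chr2:238720526-238720726: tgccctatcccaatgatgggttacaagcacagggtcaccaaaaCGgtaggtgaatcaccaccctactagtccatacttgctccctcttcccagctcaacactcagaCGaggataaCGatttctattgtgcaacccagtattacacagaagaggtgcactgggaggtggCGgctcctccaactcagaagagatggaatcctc

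CTCF, an insulator protein that anchors chromatin loops, has a motif that was found most often in promoters of the CTR list alone. The matches in 3 of the strongest of these are printed with the motif in capitals, on the strand on which it was found, which was minus for ENSG00000260209.
IRF1-AS1, chr5:132419801-132419843: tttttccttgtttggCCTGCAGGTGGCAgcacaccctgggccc
LINC02371, chr12:2739990-2740032: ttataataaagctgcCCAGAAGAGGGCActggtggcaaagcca
ENSG00000260209, chr11:125874686-125874728: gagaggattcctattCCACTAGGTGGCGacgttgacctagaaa

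The summits of lncRNA promoters clustered at the start site. The median distance between summit and TSS was 156 bp in CTR and 166 bp in the p63 list, and 38.8% and 37.1% of summits lay within 100 bp. More summits were upstream than downstream of the start, 57.1% in CTR and 55.3% in the p63 list. Within the gene to which it was assigned, the summit lay in an exon for 31.7% of CTR regions and 33.9% of p63 regions, in an intron for 26.5% and 25.7%, and outside the gene for 41.8% and 40.3%. Of all these summits, 18.6% in CTR and 18.5% in p63 lay within the body of a protein-coding gene. The nearest protein-coding TSS was at a median of 34.5 kb for shared CTR regions and 34.7 kb for shared p63 regions.

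**Figure D1:**
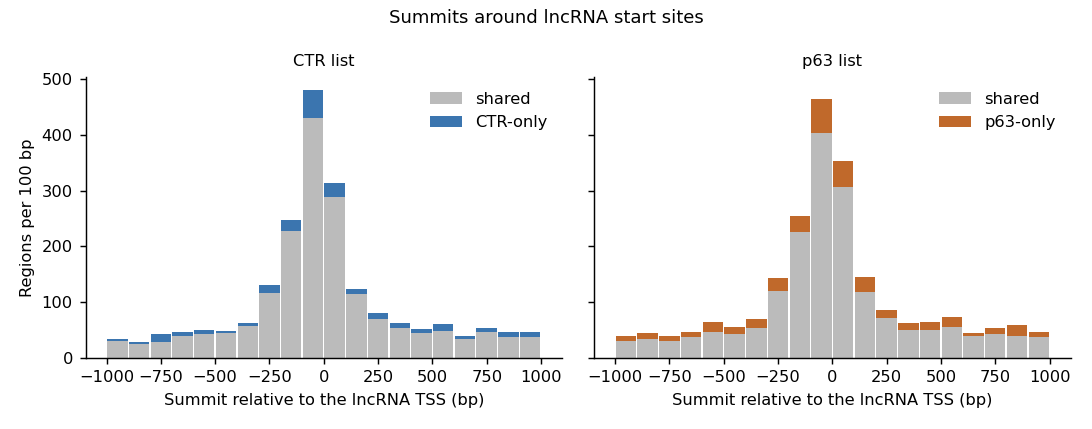
Number of lncRNA promoters per 100 bp of distance between summit and TSS (x axis, negative values upstream), for the CTR and the p63 list, with shared regions in grey and list-only regions in colour. Both lists peak in the 100 bp just upstream of the start, with 431 shared and 49 CTR-only regions in CTR and 404 shared and 60 p63-only regions in the p63 list.

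LncRNA promoters were intermediate in strength and composition. They had a median width of 634 bp in CTR and 597 bp in the p63 list, against 910 bp and 881 bp for core promoters of protein-coding genes (summit within 1 kb of a protein-coding TSS) and 513 bp and 490 bp for distal regions (more than 3 kb from protein-coding starts and more than 1 kb from lncRNA starts). The median fold enrichment, the summit's signal over its local background, was 9.54 in CTR and 9.86 in the p63 list. The median −log10 q was 25.9 and 26.3, between those of core promoters (37.3 and 38.7) and of distal regions (19.8 and 20.4). A region was called CpG-rich when the window of 150 bp to either side of its summit had a GC content of at least 50% and an observed to expected ratio of CpG of at least 0.6. This held for 30.8% of lncRNA promoters in CTR and 29.4% in the p63 list, for 71.9% and 69.2% of core promoters, and for 3.31% and 2.94% of distal regions.

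Most lncRNA promoters were open in both conditions. A region was called shared when it overlapped an open region of the other list by at least 1 bp, and CTR-only or p63-only otherwise. In the CTR list 233 of 2049 lncRNA promoters were CTR-only (11.4%, 95% Wilson interval 10.1 to 12.8%), against 16.5% of all regions of that list. In the p63 list 379 of 2211 were p63-only (17.1%, 15.6 to 18.8%), against 23.9% of all regions. LncRNA promoters were list-only more often than core promoters, of which 6.02% were CTR-only and 8.26% p63-only, and less often than distal regions with 20.5% and 29.1%. The difference from core promoters was 5.36 percentage points in the CTR list (Newcombe interval 3.99 to 6.85) and 8.88 in the p63 list (7.30 to 10.6). The difference from distal regions was -9.16 points (-10.5 to -7.66) and -12.0 points (-13.6 to -10.3). By genes, 2232 had a region in either list and 1631 in both. Of the others, 192 had CTR-only regions and none in the p63 list, and 318 had p63-only regions and none in the CTR list. The rest had a region in 1 list that overlapped an open region of the other list not counted for that gene. Genes were not counted in this way for other kinds of region.

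The p63 list was the longer list. When equal numbers of the strongest regions were taken from each list, 14.9% of lncRNA promoters were CTR-only and 14.6% p63-only, so that the shares of both lists were close. The shares over all regions were not counted in this setting. The absent shares given next and the shares among strong regions were larger in the p63 list, but were not matched for list length. Many list-only promoters had a weaker peak in the other list. This held for 186 of the 233 CTR-only regions (79.8%), where the median −log10 q of the other peak was 7.61, and for 226 of the 379 p63-only regions (59.6%), where it was 7.50. Over the whole lists it held for 7456 of 9312 CTR-only regions and 7449 of 14893 p63-only regions. The remaining 47 CTR-only lncRNA promoters (2.29%, 1.73 to 3.04%, against 3.28% of all regions) and 153 p63-only lncRNA promoters (6.92%, 5.94 to 8.05%, against 12.0% of all regions) overlapped no deposited peak of the other list and are called absent. The absent share was 0.746% and 2.96% for core promoters and 4.26% and 15% for distal regions.

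**Figure D2:**
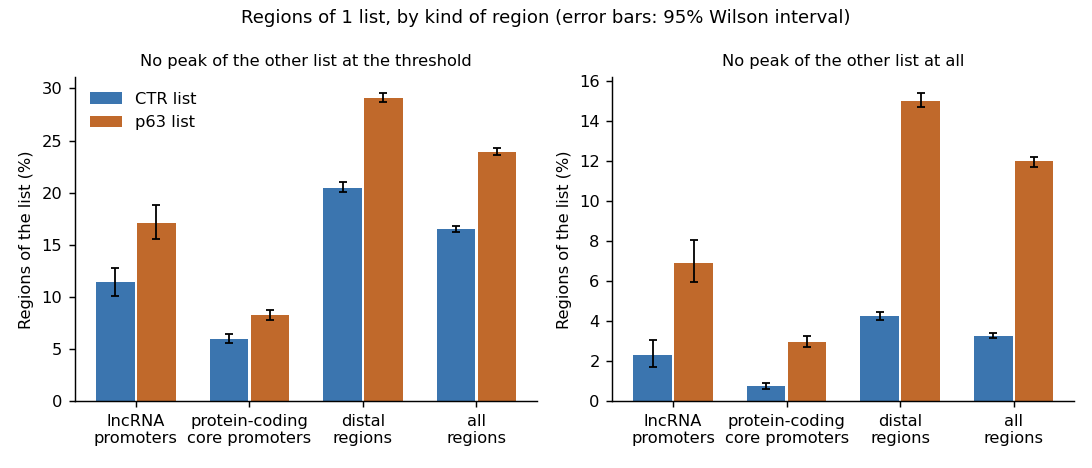
Share of regions (y axis, %) without an overlapping peak in the other list, counted at the threshold (left) or at all (right), for lncRNA promoters, protein-coding core promoters, distal regions and all regions of the CTR and p63 lists, with 95% Wilson intervals as error bars. LncRNA promoters stand between core promoters and distal regions in all 4 comparisons, at 11.4% and 17.1% on the left and 2.29% and 6.92% on the right.

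List-only promoters were weak in CTR and included strong regions in the p63 list. Among CTR lncRNA promoters the CTR-only share was 38.1% at a −log10 q of 10 to 15, 14.1% at 15 to 20, 5.41% at 20 to 30 and 0 of 851 at 30 or more, where the Wilson interval reached 0.449%. Among p63 lncRNA promoters the p63-only share was 45.3%, 26.6%, 12.9% and 3.17% (31 of 977, 2.24 to 4.47%) in the same classes. List-only was itself defined by a −log10 q of 10, so a region just above it became list-only by a small change. A fall across these classes is thus in part built in. At 30 or more, 1 of 8708 core promoters was CTR-only and 90 of 9047 (0.995%) were p63-only, and among distal regions the shares were 0.278% and 9.0%. Of the 31 strong p63-only lncRNA promoters 20 were absent from the CTR list, beside 40 of 90 core promoters and 600 of 1047 distal regions. None of the 31 was CpG-rich, where 10.3% of p63-only lncRNA promoters of any strength were. The CpG-rich share of strong p63-only regions of other kinds was not counted.

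**Figure D3:**
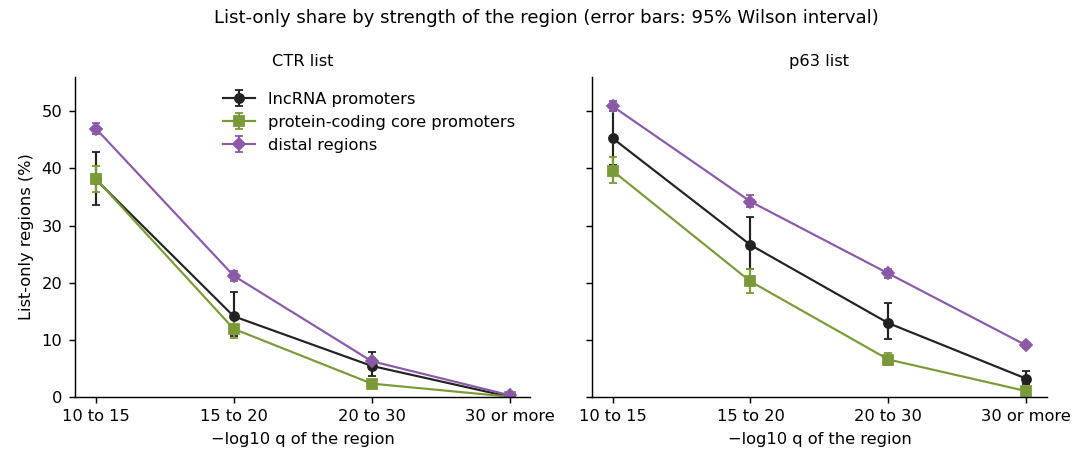
List-only share (y axis, %) in 4 classes of −log10 q (x axis) for lncRNA promoters, protein-coding core promoters and distal regions of the CTR list (left) and the p63 list (right), with 95% Wilson intervals. The share of lncRNA promoters goes down from 38.1% to 0% in CTR and from 45.3% to 3.17% in the p63 list.

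The list-only share was lower in CpG-rich lncRNA promoters. It was 4.27% in CpG-rich (27 of 632) and 14.5% in CpG-poor (206 of 1417) promoters of the CTR list, a difference of 10.3 points (7.71 to 12.6). In the p63 list it was 6.01% (39 of 649) and 21.8% (340 of 1562), a difference of 15.8 points (12.9 to 18.4). Conversely, 11.6% of CTR-only and 10.3% of p63-only promoters were CpG-rich, against 33.3% of shared promoters of either list, and 2 of the 47 absent CTR-only and 2 of the 153 absent p63-only promoters were. List-only regions of the whole lists were likewise less often CpG-rich than shared ones. Newcombe intervals of these differences were -20.7 to -19.5 points in CTR and -22.5 to -21.6 points in the p63 list. For lncRNA promoters they were -25.9 to -16.5 and -26.5 to -18.9 points, which contain the whole-list intervals. The differences were larger in core promoters (-37.9 and -54.6 points) and smaller in distal regions (-2.55 and -2.78 points). Among CpG-poor regions lncRNA promoters and core promoters had close list-only shares, 14.5% and 13.6% in CTR and 21.8% and 21.7% in the p63 list, with differences of 0.905 points (-1.16 to 3.10) and 0.0669 points (-2.26 to 2.49). The gap in list-only share between lncRNA and core promoters, given above, was thus not seen within CpG-poor regions. Among CpG-rich regions lncRNA promoters were above core promoters by 1.24 points (-0.128 to 3.14) in CTR and by 3.73 points (2.12 to 5.85) in the p63 list. CpG-poor distal regions were list-only in 21.0% and 29.7%, more often than CpG-poor lncRNA promoters with differences of -6.43 points (-8.22 to -4.45) and -7.95 points (-9.97 to -5.79) for lncRNA promoters.

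Distance from the start also went with the list-only share. In the CTR list 9.31% of promoters with the summit within 100 bp of the TSS were CTR-only, 9.45% of those at over 100 and up to 300 bp and 15.5% (12.9 to 18.4%) of those at over 300 bp. In the p63 list these shares were 13.3%, 14.6% and 23.3% (20.5 to 26.5%). The side of the start made less difference, with 11.0% upstream and 11.8% downstream in CTR and 16.4% and 18.0% in the p63 list. Promoters that lay within a protein-coding gene were list-only in 17.0% and 22.2%, and those outside in 10.1% and 16%.

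The p63 site was present in a part of the p63-only promoters. A site was counted when it lay within 100 bp of the summit, kept the C and G of both cores and had at most 3 mismatches at the other 16 positions. It was present in 33 of 379 p63-only lncRNA promoters (8.71%, 6.27 to 12.0%) and in 33 of 1832 shared promoters of the p63 list (1.80%, 1.29 to 2.52%), a difference of 6.91 points (4.36 to 10.2). The share was 1.58% in windows of the same length 2 kb to either side of the p63-only regions, and 11.4% over all p63-only regions, above the share in p63-only lncRNA promoters. Shared regions had it in 1.39% over the whole list, and the difference between p63-only and shared was 9.98 points (9.46 to 10.5) there. Among the absent p63-only promoters it was 15.7% (24 of 153, 10.8 to 22.3%), and among those with a weaker CTR peak 3.98% (9 of 226), against 18.8% and 3.96% of all p63-only regions of these kinds. Among the strong p63-only promoters, at a −log10 q of 30 or more, it was 25.8% (8 of 31, 13.7 to 43.2%). The share over all strong p63-only regions was not counted, so this value cannot be called particular to lncRNA promoters. At any strength the site was present in 9.22% of p63-only core promoters and 11.7% of p63-only distal regions, so p63-only lncRNA promoters were not above either. In the CTR list 4 of 233 CTR-only (1.72%) and 24 of 1816 shared (1.32%) lncRNA promoters had a site, a difference of 0.395 points (-0.831 to 3.04).

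All 33 p63-only promoters with a site were CpG-poor, as were 340 of all 379 p63-only promoters. Over the whole list 1686 of 1693 p63-only regions with a site were CpG-poor. The 33 promoters with a site belonged to 33 different genes. Within CpG-poor regions of the p63 list the site was present in 9.71% of p63-only and 1.88% of shared lncRNA promoters. The centre of the site lay at a median of 29.5 bp from the summit in p63-only promoters, with 23 of 33 within 50 bp, and at 50.5 bp in shared promoters, with 16 of 33 within 50 bp. Read from the site, 33 of the 66 lncRNA promoters of the p63 list with at most 3 mismatches were p63-only. Over the whole p63 list this was a higher share, 1693 of 2352 regions with a site. The steps by mismatches that follow were not counted over the whole list. By mismatches this was 18 of 25 with 2, 14 of 34 with 3, 35 of 86 with 4, 48 of 150 with 5 and 41 of 222 with 6, and 13.6% of regions without a pair of cores. At 0 and 1 mismatch it was 0 of 2 and 1 of 5, counts too small to place.

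The other motifs were looked for on both strands. AP-1, the FOS and JUN dimer, was read as TGAGTCA or TGACTCA, and TEAD, the partner of YAP, as ACATTCCA, ACATTCCT, GCATTCCA or GCATTCCT. The KLF box was read as GGGCGGGGC, GGGCGTGGC, GGGTGGGGC or GGGTGTGGC. CTCF was read as its motif of 13 bp with at most 1 mismatch. CTCF was found in 18.0% of CTR-only and 11.2% of shared lncRNA promoters of the CTR list, a difference of 6.79 points (2.13 to 12.4), and in 9.80% of all regions of that list and 8.42% of all p63 regions. Over the whole CTR list it was likewise more frequent in CTR-only regions, at 12.8% against 9.20% of shared ones (3.61 points, 2.89 to 4.35), and whether lncRNA promoters differed from other regions in this was not tested. Among absent promoters the share was high in the CTR list and low in the p63 list. CTCF was found in 14 of 47 absent CTR-only promoters (29.8%, 18.7 to 44%) and in 1 of 153 absent p63-only promoters (0.654%, 0.115 to 3.61%), whereas 9.99% of shared promoters of the p63 list had it. Over all absent regions these shares were 20.4% in CTR and 4.67% in the p63 list. The KLF box was less frequent in list-only than in shared lncRNA promoters, at 3.43% against 10.1% in the CTR list (-6.64 points, -8.88 to -3.19) and 5.54% against 9.77% in the p63 list (-4.23 points, -6.61 to -1.17). Over all regions it was found in 7.40% and 7.14%. List-only regions of the whole lists likewise had it less often than shared ones. The differences there were -5.03 points (-5.45 to -4.58) in CTR and -4.02 points (-4.42 to -3.62) in the p63 list.

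AP-1 was the most frequent of these motifs in lncRNA promoters and was about equally frequent in list-only and shared ones. It was found in 24.9% of CTR-only and 23.5% of shared promoters of the CTR list, a difference of 1.38 points (-4.11 to 7.60), and in 21.4% and 23.3% in the p63 list, a difference of -1.94 points (-6.25 to 2.85). The windows 2 kb away held it in 3.64% and 3.53%, and all regions in 26.9% and 25.4%. In core promoters AP-1 was more frequent in list-only regions, by 7.80 and 8.83 points, and in distal regions it was less frequent, with differences of -8.26 and -12.1 points. TEAD was found in 9.01% of CTR-only against 6.77% of shared promoters (2.24 points, -1.05 to 6.74) and in 6.86% of p63-only against 6.28% (0.583 points, -1.87 to 3.75), with 8.88% and 8.23% over all regions. The CTCF and KLF counts of CTR-only promoters are small, and these intervals were not adjusted for the number of motifs.

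**Figure D4:**
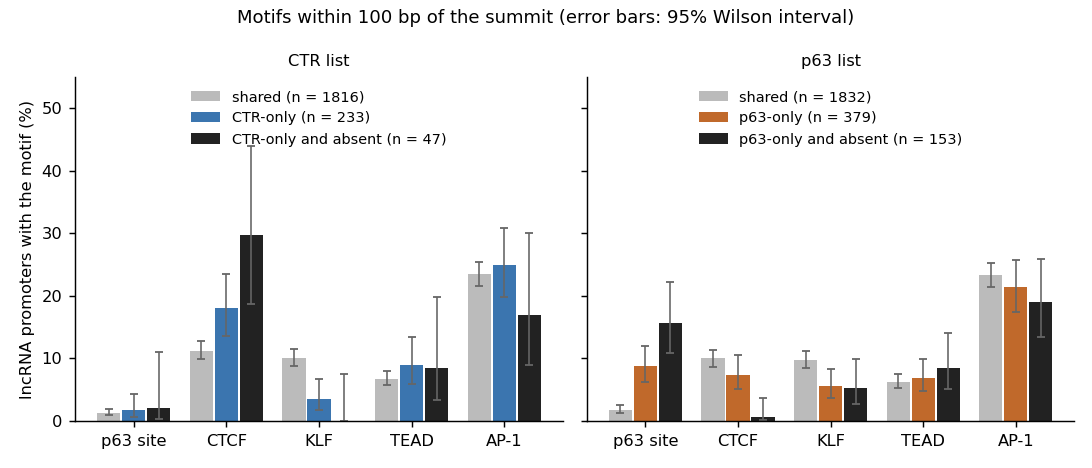
Share of lncRNA promoters (y axis, %) with each motif within 100 bp of the summit, in shared, list-only and absent list-only regions of the CTR list (left) and the p63 list (right), with 95% Wilson intervals. The p63 site stands at 15.7% in absent p63-only promoters and CTCF at 29.8% in absent CTR-only promoters.

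The p63-only promoters that were absent from the CTR list and had the highest −log10 q are described next. All 10 were CpG-poor, and their fold enrichment ranged from 9.99 to 17.1. The strongest was ENSG00000260648 (chr15:40232579-40233056), with a fold enrichment of 12.9 at a −log10 q of 56.1, whose summit lay in an exon of the lncRNA, 753 bp downstream of a start. It also lay within a protein-coding gene, and the nearest protein-coding start was that of PAK6, a kinase regulated by CDC42. ENSG00000260810 followed with 15 and 55.7, in an exon 139 bp downstream of the start. ENSG00000255426 (chr11:45736470-45737021) had a fold enrichment of 16.5 at a −log10 q of 53.6 and lay 861 bp upstream of its start, with one of the p63 sites printed above.

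LINC01937 (chr2:238720370-238720898) had a fold enrichment of 14.6 at a −log10 q of 46.0, with a p63 site of 3 mismatches. Its summit lay in an intron, 302 bp downstream of a transcript start inside the gene, not at the gene's 5′ end. Its nearest protein-coding start, that of TWIST2, a mesenchymal transcription factor, was 127406 bp away. LINC01091 (chr4:123924627-123924921) had the highest fold enrichment of the 10, 17.1, with its summit 16 bp from a transcript start that was likewise inside the gene. SPRY1, an inhibitor of growth factor signalling, was nearest at 524822 bp. The others were ENSG00000286124 and ENSG00000275236, with −log10 q values of 45.7 and 43.3 and with the summit upstream of the gene, ENSG00000286570 (45), ENSG00000224260 (40.8) and ENSG00000274765 (38.9). Of the 10 regions, ENSG00000255426 and ENSG00000274765 had a site with 2 mismatches and LINC01937 one with 3, and the remaining best matches had 4, 5 or 6.

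The 5 strongest p63-only promoters with a weaker peak in the CTR list are given in addition to the rule for named genes. ENSG00000255491 (chromosome 8) had a fold enrichment of 14.6 at a −log10 q of 78.1 in the p63 list, against 6.88 and 9.25 in the CTR list. ENSG00000226965 (chr7:110534338-110534956) had 17.3 and 67.0 against 5.05 and 5.19, with its summit in an exon, 45 bp downstream of the start, and the p63 site 26 bp from the summit. ENSG00000286770 (chr15:68487293-68487823) had 12.0 and 58.1 against 3.18 and 2.93. LINC00670 had 18.5 and 47.1 against 6.42 and 8.19, near MYOCD, a cardiac and smooth muscle coactivator, and LINC02367 had 12.0 and 45.6 against 6.24 and 9.73. The p63-only promoter with the best site, ENSG00000229976 (chr20:39812185-39812468), was weaker, with a fold enrichment of 9.86 at a −log10 q of 16.6, and had no CTR peak.

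No CTR-only lncRNA promoter was stronger than a −log10 q of 27.2. This was ENSG00000269736 (chr19:17453502-17453757), with a fold enrichment of 12.6 and no peak in the p63 list, 606 bp upstream of its start and within a protein-coding gene. ENSG00000288007 (chr1:212558576-212559170) had 8.59 and 26.8 in CTR and 4.97 and 8.49 in the p63 list. It was the CpG-rich one among the 10 strongest, and the nearest protein-coding start, at 6326 bp, was that of ATF3, a stress-induced factor of the AP-1 group. IRF1-AS1 (chr5:132419686-132420121) had 11.0 and 26.8, the CTCF motif printed above and no p63 peak. Its summit lay in an exon, 15 bp from a transcript start inside the gene. LINC02371 (chr12:2739948-2740439) also had a CTCF motif and its summit 15 bp from the start, with 11.3 and 23.3 in the CTR list against 7.07 and 9.96 in the p63 list, just under the threshold. LINC02331 (chr14:53850888-53851795), whose nearest protein-coding gene was BMP4, a bone morphogenetic ligand, had 11.5 and 24.1 and no p63 peak.

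The other 5 of the 10 strongest CTR-only promoters each had a p63 peak below the threshold. NAV2-AS3 had a fold enrichment of 10.6 against 4.03 in the p63 list and LURAP1L-AS1 12.8 against 6.11. ENSG00000235872 had 9.93 against 4.80, ENSG00000254290 10.6 against 6.28 and ENSG00000286838 11.6 against 7.05. Their −log10 q was 23.7 to 26.2 in CTR and 5.12 to 9.54 in the p63 list. None of the 10 had a p63 site.

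The strongest shared promoter stood apart. ENSG00000289901 (chr13:109424128-109424338) had a −log10 q of 1992 in the p63 list and 2252 in the CTR list, with fold enrichments of 38.3 and 36.9, and the next was at 186. All of its stretches of 25 bases (100%) also occurred in the mitochondrial genome, and no other lncRNA promoter of either list held such a stretch. Reads of mitochondrial DNA cannot be told apart from reads of this locus, and the region counts once in each shared total. The next were ENSG00000261135 (fold enrichment 11.3 in the p63 list and 10.4 in the CTR list), ENSG00000290854 (15.2 and 13), ENSG00000291075 (17.7 and 15.9) and LINC01615 (17.7 and 13.2), a gene near THBS2, which encodes an extracellular matrix protein of fibroblasts. These regions were chosen by their −log10 q in the p63 list, so nothing is read from their direction.

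Shared promoters were then paired, each region with the one of the other list that it overlapped most. There were 1797 pairs with a lncRNA promoter in both lists. The log2 ratio of fold enrichments, p63 over CTR, was centred by subtracting its median over all 47125 pairs, 0.05. The centred ratio of lncRNA promoters had a median of 0.01 and 95% of pairs lay between -0.48 and 0.53, close to all pairs with -0.55 and 0.57. A ratio of at least 1.5 in favour of the p63 list was found for 28 pairs (1.56%), against 2.24% of all pairs, and in favour of the CTR list for 21 (1.17%), against 2.02%. CpG-rich pairs spread less, with 3 higher and 3 lower of 601, than CpG-poor pairs, with 25 higher and 18 lower of 1196. The 32 pairs with a p63 site had a median of 0.14, with 4 higher and 0 lower by the same fold, and the 652 such pairs among all regions had a median of 0.17, with 98 higher and 9 lower. The fold enrichments were not scaled between the lists by the authors, so these ratios are descriptions.

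Of the pairs with a −log10 q of 20 or more in both lists, ENSG00000258773 (chr15:95132513-95133211) had the largest centred log2 ratio, 0.62, with a fold enrichment of 9.37 in CTR and 14.9 in the p63 list. PRKG2-AS1 (11.5 and 17.7, ratio 0.57) and ENSG00000230404 (11.0 and 16.9, ratio 0.56) followed, and none of these 3 held a p63 site. In the opposite direction were ENSG00000291073 (7.45 and 4.95, ratio -0.64), ENSG00000230908 (14.0 and 9.39, ratio -0.63) and ENSG00000288789 (16.7 and 11.2, ratio -0.63). Larger ratios occurred among weaker pairs, and the first 3 regions stand above the line of equality and the last 3 under it in the plot of paired fold enrichments.

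**Figure D5:**
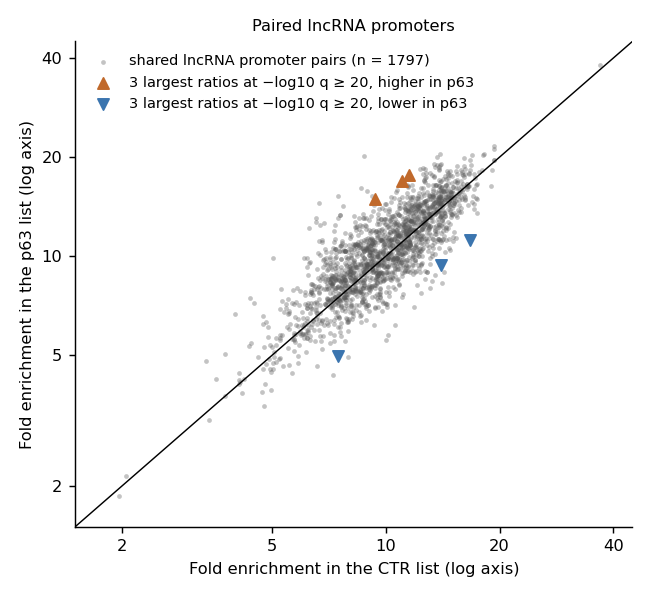
Fold enrichment in the CTR list (x axis, log scale) and in the p63 list (y axis, log scale) of the 1797 pairs of shared lncRNA promoters, with the line of equality and the 3 largest ratios in each direction among pairs at a −log10 q of 20 or more. The cloud follows the line, with a median centred log2 ratio of 0.01, and the point at the top right is ENSG00000289901, at 36.9 and 38.3.

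Named lncRNAs were followed in 4 lists. Of 22 lncRNAs known from fibroblasts and mesenchyme, 8 had a lncRNA promoter region in either list, 8 had open regions near their starts that did not count for them, because a protein-coding start was within 3 kb or another lncRNA start was nearer, as at HOTTIP and HOXA11-AS, and 6 had none at the threshold. In all 3 of 15 regions of the CTR list and 3 of 15 of the p63 list were list-only, beside 11.4% and 17.1% of all lncRNA promoters. FENDRR, a lncRNA of the lateral mesoderm, had a CTR-only region (chr16:86490815-86491497, fold enrichment 10.5 and −log10 q 21.3), whose p63 peak had 6.53 and 9.10. MIR99AHG, the host gene of a microRNA cluster, had 4 regions in the CTR list. Those at 16194032 and 16588065 on chromosome 21 were shared, the one at 16330295 (fold enrichment 9.64, −log10 q 16.2) had no p63 peak, and the one at 16124367 (8.72 and 13.8) had a p63 peak of 7.05 and 9.54.

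MIR100HG, the host gene of the paralogous cluster, had 5 shared regions and 2 p63-only regions without any CTR peak, at 122367854 (fold enrichment 10.1, −log10 q 19) and 122421860 (7.52 and 10.7) on chromosome 11, within 68 and 71 bp of annotated starts. The list-only regions of these paralogous genes were thus in opposite lists by single calls at the threshold, and a difference between the genes was not tested. H19, an imprinted fetal lncRNA, was p63-only by the threshold alone, with a fold enrichment of 6.20 at a −log10 q of 10.1 in the p63 list and 6.26 and 9.76 in the CTR list. HOTAIR (5.74 in CTR and 5.48 in the p63 list), MEG3, MEG8 and DNM3OS (11.3 and 10.8), which hosts microRNAs of mesenchymal cells, were shared.

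Of 12 lncRNAs known from epidermis and squamous tumours, 10 were annotated as lncRNA, TINCR being annotated as protein-coding, and 7 had a lncRNA promoter region. LINC00941 was open but did not count, with a highest −log10 q of 59.9 in CTR and 58.3 in the p63 list. MIR205HG, which hosts an epithelial microRNA, and UCA1 had no peak within 1 kb of a start in either list at any threshold. In all 1 of 14 regions of the CTR list and 3 of 17 of the p63 list were list-only, again beside 11.4% and 17.1% of all lncRNA promoters. LINC01503, a lncRNA of squamous carcinomas, had a p63-only region (chr9:129332207-129332486, fold enrichment 8.33, −log10 q 27.8) 44 bp from a start, with no CTR peak and a best p63 match of 4 mismatches. Its other region, at 129334061, was shared with 9.62 in the p63 list and 10.4 in the CTR list. LINC01133, a lncRNA of epidermal and squamous cells, was shared, with a fold enrichment of 12.4 at a −log10 q of 57.2 in CTR and 15.2 and 88.2 in the p63 list. CYTOR had 2 shared regions and a p63-only one (7.61 and 15.2, against 5.19 and 7.23). SFTA1P had a CTR-only region (10.9 and 22, against 6.11 and 7.40), and MIR31HG (9.88 and 10.9) was shared. DANCR, which keeps epidermal progenitors undifferentiated, had a region of the p63 list (13.3) that overlapped a CTR region (14.4) whose summit was nearer to a start of LINC01618 and was counted there.

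LINC00511 had the most lncRNA promoter regions of any gene, 8 in CTR and 9 in the p63 list. All 8 CTR regions were shared, and the p63-only region was at 72502543 on chromosome 17 (fold enrichment 9.69 and −log10 q 18.4, against 4.59 and 4.27). At its strongest start (72407363 in the CTR list) the fold enrichment was 13.8 in CTR and 18.3 in the p63 list, with a −log10 q of 92.7 and 109. The shared region at 72422784 went the other way, with 7.92 in CTR and 5.91 in the p63 list. PVT1, which lies beside MYC, had 5 regions in each list and all of them were shared. LINC01013 had 5 regions in the p63 list, of which 2 were p63-only. In all 150 genes of the CTR list and 166 genes of the p63 list had more than 1 region, so regions of a gene are not independent of each other.

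Of 11 lncRNAs of the p53 family and the damage response, 10 were annotated as lncRNA, and LINC-PINT and PURPL had a lncRNA promoter region. A further 3 had open regions near their starts that did not count for them, and 5 had none at the threshold. Those 3 were TP53TG1 (highest −log10 q 77.6 in CTR and 74.4 in the p63 list), MIR22HG (29.7 and 32.0) and DINOL (22.7 and 17.1). LINC-PINT was shared, with a fold enrichment of 5.70 in CTR and 5.76 in the p63 list. The PURPL region of the CTR list (chr5:27472192-27472460), 3 bp from a start and in an exon, had a fold enrichment of 7.34 at a −log10 q of 10.3, and the p63 list had a peak of 3.76 and 2.71. NEAT1, the scaffold of paraspeckles, had peaks below the threshold, with a highest −log10 q of 8.12 in CTR and 8.20 in the p63 list, and so had MIR34AHG, host of a p53-induced microRNA (7.63 and 5.30).

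Of 30 broadly expressed lncRNAs and small-RNA host genes, 29 were annotated as lncRNA, 21 had a lncRNA promoter region in each list, 7 were open but did not count and 1, MIR34AHG, had no open region. None of the 31 p63 regions was p63-only and 2 of the 32 CTR regions were CTR-only, one at FTX and one at MIR4435-2HG, beside the same 17.1% and 11.4%. Both genes had 2 shared regions in the CTR list. At FTX, a gene of the X inactivation centre, the CTR-only region had a fold enrichment of 8.72 at a −log10 q of 13.8 against 7.05 and 9.54, and at MIR4435-2HG 7.55 and 15.5 against 5.47 and 8.43. SNHG29 (13.6 in CTR and 13.7 in the p63 list), SNHG15 (13.3 and 12.8), EPB41L4A-AS1 (16.4 and 16.6), SNHG12 (12.6 and 12.7), MALAT1 (6.88 and 7.14) and NORAD (13 and 13.2), a decoy of Pumilio proteins, had close values in both lists. MIR17HG, host of a proliferation-linked microRNA cluster, had 7.40 in CTR and 9.55 in the p63 list.

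By the name of the gene, 1241 of the 2211 promoters of the p63 list belonged to lncRNAs known by an identifier alone, of which 18.0% were p63-only. This share was 16.7% for LINC genes (83 of 497), 23.3% for genes named as antisense (40 of 172, 17.6 to 30.1%), 11.4% for other names and 5.45% for small-RNA hosts (3 of 55, 1.87 to 14.9%). In the CTR list the CTR-only shares were 11.4%, 11.2%, 14.7% (23 of 156), 9.05% and 14.3% (8 of 56, 7.42 to 25.7%). Across the 23 chromosomes, with 39 to 218 CTR regions and 33 to 234 p63 regions each, the CTR-only share ranged from 0 of 43 on chromosome 22 to 19.2% (10 of 52) on chromosome 18, and the p63-only share from 1 of 33 on chromosome X to 34.1% (28 of 82) on chromosome 4.

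The limits of the rule cut through continuous values. The lowest −log10 q of a lncRNA promoter was 10.019 in CTR and 10.006 in the p63 list, and the highest value just below the threshold was 9.991 and 9.996, with 1177 and 1183 further peaks below it near lncRNA starts. The farthest summit counted was 998 bp and 999 bp from a start, and the nearest not counted was at 1001 bp and 1002 bp. The nearest protein-coding start allowed was 3011 bp and 3012 bp away, and 2777 CTR and 2832 p63 regions near lncRNA starts were not counted because of a protein-coding start within 3 kb.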

How the data were processed

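ATAC-seq was performed by the authors in 4 samples, 2 per group. Per the labels and the study's methods, reads were mapped to hg38 with Bowtie2 2.3.4.3 and MACS2 was used to call peaks from both replicates of a group. The MACS2 version and options, how duplicates were treated and the shift for the transposase are not given in the sources used here, and the number of reads is unknown. The deposited lists hold 103700 (CTR) and 112294 (p63) peaks, each with the authors' fold enrichment (a ratio of signal to local background), a −log10 q and the offset of the summit.

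Peaks reaching a −log10 q of 10 on chromosomes 1 to 22 and X were annotated with GENCODE release 44 starts of all transcripts, and sequences were read from hg38 with pysam 0.24.0. Overlap, distance and motif functions were tested on simulated data. Shares have 95% Wilson intervals and differences of shares Newcombe intervals, which cover counting error only. The members, motifs and gene lists were chosen with earlier results of these data known. Named genes were the members of the 4 gene lists, the 10 strongest absent p63-only and the 10 strongest CTR-only promoters, the 5 strongest shared promoters, p63-only promoters with at most 1 mismatch, the 3 largest ratios in each direction and the genes with most regions. The p63-only promoters with 2 mismatches or with a weaker CTR peak, PURPL's site, the printed windows, the marker genes and the classes of −log10 q were added after the values were seen. Alternatives changed the threshold, distances, start sites, overlap rule, list length and motif settings.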

Additional observations from a re-analysis of the deposited data

How the results depend on the processing

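The number of lncRNA promoters of the p63 list was 3394 with all deposited peaks and 1425 with the threshold raised to 20. The share of CTR-only promoters, 11.4% as reported, was 15.7% with all deposited peaks, 9.61% and 13.2% with lncRNA starts within 500 bp and 2 kb, 2.29% when absence at any threshold was required, 15.1% with an overlap of 50% of both peaks, 14.9% with equal numbers of top-ranked peaks, 14.5% in CpG-poor regions and 0% among regions reaching a −log10 q of 30. The p63-only share, 17.1% as reported, was in the same order 19.3%, 15.2% and 19.7%, 6.92%, 20.8%, 14.6%, 21.8% and 3.17%, and it was 19.4% with the threshold at 20 and 15% with the 5′ end of the gene only. The difference in p63 sites between p63-only and shared promoters stayed above 0 in every alternative run. It was 13.6 points when absence was required, 4.3 and 13.4 points with 2 and 4 mismatches, and 23.4 points among regions reaching 30. Of the 58 values computed, 32 stayed within the interval of the reported value or within 1.5 times the reported count, and 26 did not. A change of direction was counted in 0, but only the differences in p63 sites and in CpG-rich shares could have shown one. Among the 32 is the ratio of pairs taken as percentile ranks, 0.50 percentile points (central 95% -29.61 to 40.01), which is on another scale and was judged by its sign and its own range alone. The settings for CpG-poor regions and for a −log10 q of 30 were chosen after seeing the data, and the cause of these shifts was not tested beyond the construction of each setting. Replicates could not be left out, because each list was made from both. No paired analysis was possible because the lists carry no values per replicate.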
